A study of Homo sapiens with 2 samples.

Results

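The enzymes that make and break down sphingosine-1-phosphate (S1P), and a receptor that senses it, were examined in PC3 cells that carried extra miR-95. PC3 is an established human prostate cancer cell line. The members were chosen by gene symbol: SPHK1, SGPP1, PLPP3, SGPL1 and S1PR2. All 5 were measured, each by 1 probe set, among 13864 genes in all. The study compared 2 stable derivatives of PC3. The control line overexpressed a control microRNA (PC3 miR control) and the other overexpressed miR-95 (PC3 miR-95). Both were grown in DMEM with serum, and their total RNA was biotin-labelled for an Affymetrix array, per the labels' protocols. Each group held 1 array, so no value has a replicate error and no difference was tested. The vectors, the level of miR-95 reached, and whether either line was a clone or a pool of cells are not stated in the sources used here.

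S1P is a lipid signal made inside cells by adding a phosphate to sphingosine, itself released from ceramide. Sphingosine kinases make it, phosphatases turn it back into sphingosine, and a lyase destroys it for good. Exported S1P acts on G protein-coupled receptors of the cell surface, which control migration, survival and the cytoskeleton. Ceramide and sphingosine are generally linked to growth arrest and death and S1P to survival, so the enzymes between them are studied in tumours and in the response to radiation. MicroRNAs lower messenger RNAs that pair with their seed, the short stretch near their 5′ end, and SGPP1 has been reported as a target of miR-95. The sources used here do not state whether these arrays first led to SGPP1, so its value below is a description and no independent evidence.

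The sequences of the overexpressed microRNA are shown because the comparison rests on it. They come from RefSeq (GRCh38.p14), are written 5′ to 3′, and have the seed, bases 2 to 8, in capitals in the mature forms. In the hairpin the capitals mark both mature arms.
hsa-miR-95-3p: uUCAACGGguauuuauugagca
hsa-miR-95-5p: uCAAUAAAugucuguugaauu
MIR95 hairpin: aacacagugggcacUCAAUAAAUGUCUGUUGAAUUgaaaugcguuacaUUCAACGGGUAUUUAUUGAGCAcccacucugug
The hairpin lies at chr4:8005301-8005381 on the minus strand. The 3p arm, 22 bases long, takes up bases 49 to 70 of the 81-base hairpin and lies at chr4:8005312-8005333. The 5p arm, 21 bases long, takes up bases 15 to 35 and lies at chr4:8005347-8005367. The complement of the 3p seed in a messenger RNA reads CCGUUGA, and that of the 5p seed UUUAUUG. Of the 2545 mature entries in the RefSeq table, 0 from other genes carried either seed. The labels do not say which arm accumulated, and 0 probe sets used here named MIR95, so the overexpression could not be checked on these arrays. A search for the seed complements in the members' transcripts was not run, since transcript sequences were not used here.

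The values are log2 expression as deposited, rounded to 2 decimals, so rounding alone can move a difference by up to 0.01. Each difference is the miR-95 value less the control value in log2 units, after each array was centred on its median over genes. Centring lowered every difference by 0.035. A gene counted as detected when it was at or above the median on at least 1 array, 7.46 for the control and 7.495 for miR-95. All 5 members and 7081 genes in total met that rule. A gene was called higher or lower at 1.5-fold, a log2 difference of 0.585. Among detected genes 0.861% (61) were called lower and 0.395% (28) higher, against 45 and 37 genes without centring, and the median difference was -0.035. Of the 5 members, 1 was called lower and 1 higher, while the other 3 were within 1.5-fold. The lower gene was the phosphatase SGPP1 and the higher gene was the receptor S1PR2. With 5 genes, of which SGPP1 was of prior interest, these counts describe the genes and say nothing of the pathway as a whole.

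**Figure D1:**
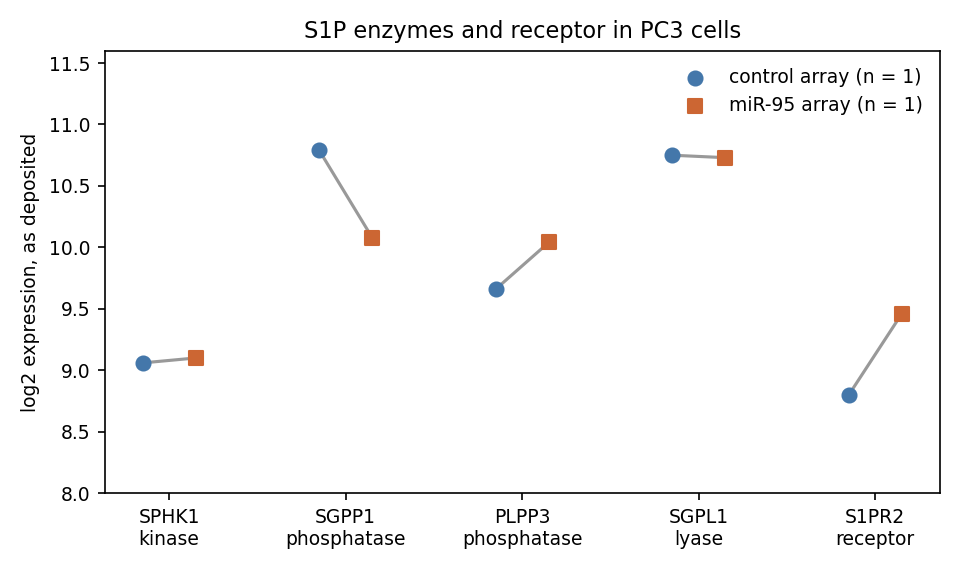
Deposited log2 expression (vertical axis) of the 5 genes, ordered from synthesis through breakdown to reception, on the control array (circles) and the miR-95 array (squares), 1 array each and no error bars. SGPP1 goes from 10.79 to 10.08 and S1PR2 from 8.80 to 9.46, while SPHK1 and SGPL1 are almost level.

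Synthesis was read through SPHK1, sphingosine kinase 1 (Entrez gene 8877, probe set 16838059), which phosphorylates sphingosine to S1P and is often raised in tumours. SPHK1 read 9.06 on the control array and 9.10 on the miR-95 array. The arrays were thus almost level for it, and both values were well above the array medians. After centring SPHK1 differed by 0.005. Without centring it differed by 0.04. SPHK2, the second sphingosine kinase, was named by no probe set used here, so synthesis rests on SPHK1 alone.

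Reversible breakdown was read first through SGPP1, S1P phosphatase 1 (Entrez gene 81537, probe set 16793750), an enzyme of the endoplasmic reticulum that returns S1P to sphingosine. SGPP1 read 10.79 on the control array and 10.08 on the miR-95 array. The miR-95 array was the lower, and even there SGPP1 stood 2.585 above the array median, so the transcript was lower there and still detected. The centred difference was -0.745, which left 59.7% of the control value. Only 18 of 7081 detected genes, SGPP1 included, had a difference as low or lower, or 0.254%. Detected genes were divided by mean level into 3 groups of nearly equal size, and SGPP1 belonged to the brightest, where differences scattered least. The robust SD of the differences there (the median absolute deviation scaled to a normal SD) was 0.133, and SGPP1 lay 5.2 such SDs from the group's median. In that brightest group 0.552% of genes were called lower. This scatter is across genes on one pair of arrays and holds no variation between cultures.

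PLPP3, lipid phosphate phosphatase 3 (Entrez gene 8613, probe set 16687737), is a membrane enzyme that dephosphorylates S1P, lysophosphatidic acid (LPA) and related lipids, mostly outside the cell. PLPP3 read 9.66 on the control array and 10.04 on the miR-95 array. It was the higher on the miR-95 array, opposite in direction to SGPP1. Its centred difference of 0.345 corresponds to 127% of the control value and was within 1.5-fold. Of the detected genes 2.68% (190) had a difference as high or higher. PLPP3 also belonged to the brightest group and lay 2.9 robust SDs from the median there.

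Irreversible breakdown was read through SGPL1, S1P lyase (Entrez gene 8879, probe set 16705778), which cleaves S1P into hexadecenal and phosphoethanolamine. SGPL1 read 10.75 on the control array and 10.73 on the miR-95 array. Both arrays gave nearly the same value, far above the array medians. The centred difference was -0.055, close to the median of -0.045 in the brightest group. Its sign depended on the scaling, with 0.01 after quantile normalization. Differences of that size carry no direction here. ALDH3A2, which oxidises the hexadecenal, was named by no probe set used here.

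Reception was read through S1PR2 (Entrez gene 9294, probe set 16868619), an S1P receptor known for coupling to G12 and G13 proteins. S1PR2 read 8.80 on the control array and 9.46 on the miR-95 array. The miR-95 array was the higher, and both values lay above the array medians. The centred difference was 0.625, or 154% of the control value. That is only 0.04 past the limit of a call. Of the detected genes 0.297% (21) had a difference as high or higher. S1PR2 belonged to the group of middle brightness, where it lay 4.5 robust SDs (0.148 each) from the median and where 0.423% of genes were called higher.

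**Figure D2:**
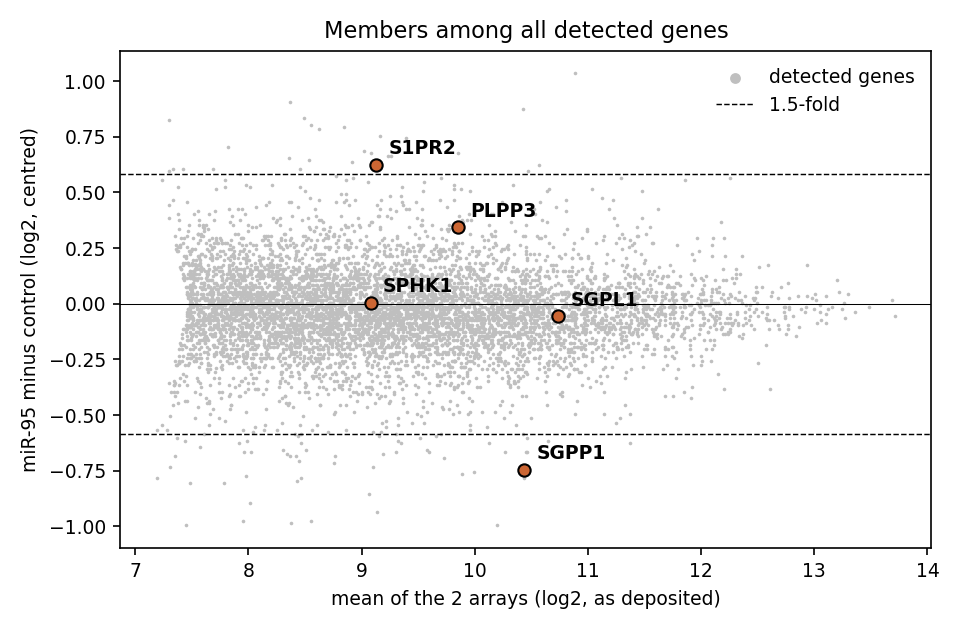
Centred log2 difference, miR-95 minus control (vertical axis), against the mean deposited log2 value of the 2 arrays (horizontal axis) for 7081 detected genes (grey) and the 5 members (labelled), with dashed lines at 1.5-fold. SGPP1 at -0.745 lies below the lower line and S1PR2 at 0.625 just above the upper one, while PLPP3, SPHK1 and SGPL1 lie between them.

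Differences between members do not depend on a constant shift between the arrays, because such a shift cancels. The difference of SGPP1 was 0.75 below that of SPHK1 on the log2 scale, so the phosphatase changed relative to the kinase by a ratio of 0.59. SGPP1 likewise moved relative to the lyase SGPL1 by a ratio of 0.62. Between the phosphatases the gap was wider, with SGPP1 relative to PLPP3 at a ratio of 0.47. The widest gap of the 10 pairs was that of S1PR2 relative to SGPP1, a ratio of 2.58. SGPL1 relative to SPHK1 was nearly level, at 0.96. These ratios compare how the genes differed between arrays and say nothing of how much of each transcript or enzyme the cells held.

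The members' standing was also set beside gene span, since differences on these arrays declined with it. Over 4 span groups of equal size, from shortest to longest, the medians were 0.015, -0.025, -0.065 and -0.075. SPHK1 and S1PR2 belonged to the shortest group, SGPP1 and SGPL1 to the second longest and PLPP3 to the longest. SGPP1 and SGPL1, which shared a span group and a brightness group, differed by -0.745 and -0.055. PLPP3, of the group with a median of -0.075, differed by 0.345. The part of gene span in the members' values was not tested.

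The nearest measured genes beside the members on the chromosome were also read. WDR89 and ESR2, the nearest measured genes on either side of SGPP1, differed by -0.115 and -0.225, and ESR2 was below the detection rule. Beside S1PR2, the DNA methyltransferase gene DNMT1 differed by -0.145 and the mitochondrial ribosomal protein gene MRPL4 by 0.015. Beside PLPP3, the deubiquitinase gene USP24 differed by 0.095 and FYB2, below the rule, by -0.005. Beside SPHK1, PRPSAP1 differed by 0.045 and UBE2O by -0.045. Beside SGPL1, the perforin gene PRF1, below the rule, differed by -0.155 and PCBD1 by 0.085. Of these 10 neighbours 0 reached 1.5-fold, which is no result about them, since 0.861% of detected genes were called lower and 0.395% higher. For SGPP1 both neighbours had the same sign as the member. Over all detected genes 59.4% were also negative after centring, so the shared sign is no result about the region.

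For each member the detected genes with the nearest pair of values were found, by the straight-line distance over both arrays in log2 units. With 2 arrays this likeness is coarse, and it describes only level and difference. Within 0.1 of SPHK1 lay 128 detected genes and within 0.1 of SGPL1 80. Around PLPP3 lay 18, around SGPP1 3 and around S1PR2 1. The nearest to SGPP1 were POMK, a kinase of O-mannose glycans (10.81 and 10.06, distance 0.028), the poly(A) ribonuclease gene PARN (10.77 and 10.14, distance 0.063) and EID1 (10.78 and 10.15, distance 0.071). The nearest to S1PR2 were the adhesion receptor gene ADGRG1 (8.73 and 9.44, distance 0.073), TMEM106B (8.77 and 9.56, distance 0.104) and TCEAL9 (8.77 and 9.35, distance 0.114). For PLPP3 they were the steroid dehydrogenase gene HSD17B2, MANSC4 and PRDM8, with distances of 0.036, 0.036 and 0.041. The deposited pairs of CCDC93 and WDR46 were identical to that of SPHK1, at a distance of 0, and UBXN6 followed at 0.01. BLZF1, GPR107 and PTCD3 each lay 0.01 from SGPL1.

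The rest of the S1P route was read through lists fixed by role. Lists of kinases, phosphatases, lyase, export and carriage, receptors, ceramidases and ceramide synthases held 31 genes, of which 23 were measured and 13 detected. Of the 13, SGPP1 was the 1 called lower and S1PR2 the 1 called higher, and the other 11 were within 1.5-fold. The list median was 0.005, against -0.035 over all detected genes. Without the 5 members, 8 detected genes remained, from -0.095 to 0.175, with a median of 0.012. Of these 4 were negative and 4 positive after centring, and 2 negative and 6 positive as deposited. They held 0 calls, a share that cannot be told from the background of 0.861% lower and 0.395% higher.

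Among the other phosphatases, SGPP2, the paralog of SGPP1, read 5.86 on the control array and 5.93 on the miR-95 array, below the detection rule on both. A higher SGPP2 beside the lower SGPP1 was therefore not seen at this signal. PLPP1, a relative of PLPP3, read 9.42 and 9.57, a centred difference of 0.115. PLPP2 read 7.03 and 7.05, below the rule. SGPP1 was thus the 1 of 3 detected phosphatases with a negative difference. Over all detected genes 59.4% were negative after centring and 48.0% as deposited, so this sign count is no result about the phosphatases.

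Among the other S1P receptors, S1PR5 was the 1 that was detected besides S1PR2, at 7.89 and 7.86 with a centred difference of -0.065. S1PR1 read 6.32 and 6.21 and S1PR4 read 6.71 and 6.93, all below the rule. S1PR3 was named by no probe set used here. S1PR2 was therefore the 1 of 2 detected receptors that was called, against 0.395% of all detected genes called higher. Receptors below the rule could not be called, so this count is no result about the receptors. The S1P transporter SPNS2 (7.22 and 7.12) and the S1P carrier APOM (6.50 on both arrays) were below the rule. MFSD2B, ABCC1, ABCG2 and ABCA1, the rest of the export and carriage list, were named by no probe set used here. Export was therefore measured only in part.

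The ceramidases supply the sphingosine that SPHK1 uses, and the ceramide synthases take up the sphingosine that SGPP1 releases. The acid ceramidase ASAH1 read 10.39 and 10.33 and the alkaline ceramidase ACER3 read 9.83 and 9.91, centred differences of -0.095 and 0.045. ASAH2 had the largest difference of the ceramidases, 0.415, but at 5.93 and 6.38 it was below the rule. Of the 4 detected ceramide synthases, CERS2, CERS5 and CERS6 differed by 0.035, -0.015 and -0.01. CERS4, which read 7.37 and 7.58, differed by 0.175. It was below the median on the control array and met the detection rule through the miR-95 array alone, so its difference, the upper end of the range above, gives no support to a direction.

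**Figure D3:**
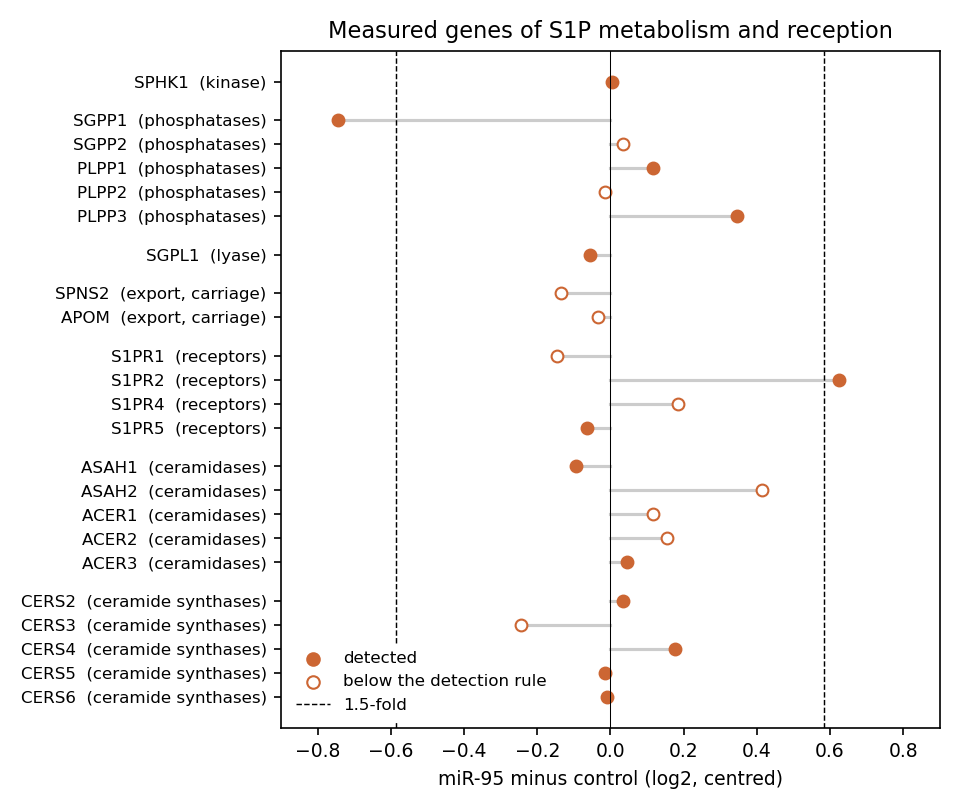
Centred log2 difference, miR-95 minus control (horizontal axis), of the 23 measured genes of S1P metabolism and reception grouped by role, with dashed lines at 1.5-fold, filled points for detected genes and open points for those below the detection rule. SGPP1 at -0.745 and S1PR2 at 0.625 are the points outside the lines.

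Of the partners of SPHK1 and the intracellular targets of S1P, the 3 detected genes were nearly level. They were CIB1 at -0.035, PHB2 at 0.065 and HDAC1 at -0.015. HDAC2, at 7.31 and 7.19, was below the rule.

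Transcripts known to respond to YAP, which S1P receptors can activate, did not move as one. ANKRD1 read 8.42 on the control array and 7.48 on the miR-95 array, a centred difference of -0.975, and was the 1 of 5 detected that was called. It was lower where S1PR2 was higher, and on the miR-95 array it fell below the array median. AMOTL2 differed by -0.345 and AJUBA by -0.155. The receptor kinase gene AXL differed by 0.195, and CCN2, the connective tissue growth factor, by 0.02.

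LPA shares PLPP3 as its phosphatase. The LPA receptors LPAR1 and LPAR3 belong to the same family as the S1P receptors, whereas LPAR4 belongs to another. Of the 3 detected LPA receptors, LPAR4 was called lower, with 8.35 on the control array, 7.61 on the miR-95 array and a centred difference of -0.775. LPAR3 read 9.86 and 10.06, a centred difference of 0.165, and LPAR1, the mean of 2 probe sets, differed by -0.015. ENPP2, the secreted enzyme that makes LPA, was below the rule at 4.60 and 4.59. Among the detected receptors of S1P and LPA, S1PR2 was called higher and LPAR4 lower. Over all detected genes 0.395% were called higher and 0.861% lower, and calls in lists this short are no result about the receptors.

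The members' values moved little with the scaling and the treatment of dim values. Across the main setting and 6 alternatives SGPP1 ranged from -0.745 to -0.695 and S1PR2 from 0.591 to 0.66, and both stayed past 1.5-fold in each. PLPP3 ranged from 0.334 to 0.387 and stayed within it. SPHK1 ranged from 0.005 to 0.045 and SGPL1 from -0.055 to 0.01. S1PR2 came nearest to the limit when 32 was added on the linear scale, which damps differences of dimmer genes most. Under median centring a limit of 1.3-fold called 3.26% of detected genes lower and 1.88% higher. It called SGPP1 and S1PR2 and left PLPP3 out. Whether PLPP3 passed that limit depended on the scaling. It was past 1.3-fold without centring (0.38), after quantile normalization (0.385) and after loess (0.387). It was short of it when centred on all probe sets (0.37), with the brightest probe set (0.35) and with the offset (0.334). A limit of 2-fold, which called 0.0% lower and 0.0141% higher, called 0 members.

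**Figure D4:**
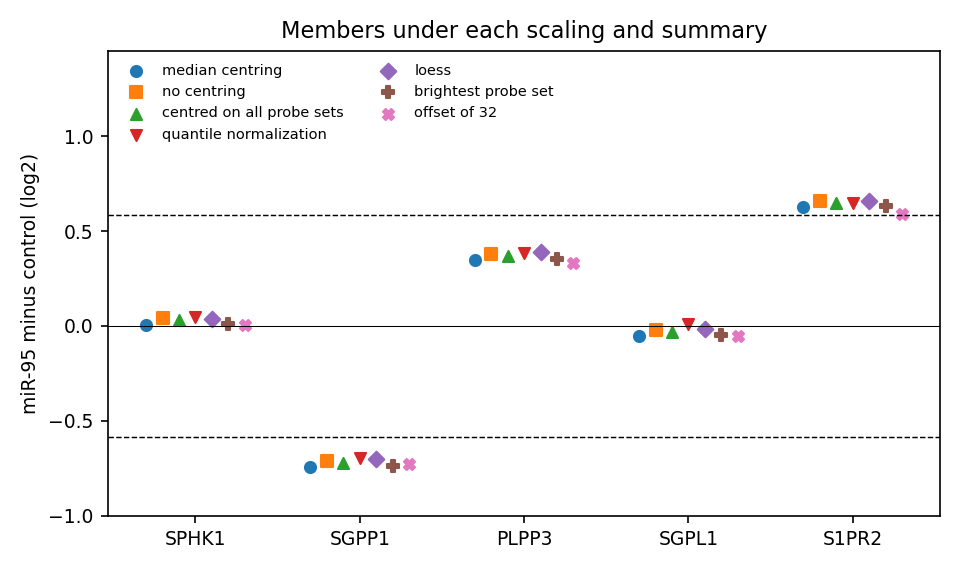
Log2 difference, miR-95 minus control (vertical axis), of each member under median centring and 6 alternatives (symbols), with dashed lines at 1.5-fold. The symbols of each gene form a tight group, from -0.745 to -0.695 for SGPP1 and from 0.591 to 0.66 for S1PR2.

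On the arrays as a whole, the values correlated at 0.9959 (Pearson's r) across 23641 probe sets, and 59.4% of detected genes were negative after centring and 48.0% as deposited. The 5 measured epithelial markers were detected on the arrays (7.86 to 9.65 on the control and 7.81 to 9.83 on the miR-95 array), with CDH1 not named here. The measured androgen-regulated (3), neuroendocrine (4), leukocyte (2) and fibroblast (2) markers were below the detection rule, and of 2 endothelial markers KDR was detected, at 7.96 and 8.28. The summed log2 values of the marker lists on the control and miR-95 arrays were 42.54 and 42.49 for epithelial, 17.48 and 17.50 for androgen-regulated, 24.73 and 24.31 for neuroendocrine, 9.42 and 9.20 for leukocyte, 13.77 and 14.10 for endothelial and 10.23 and 8.80 for fibroblast genes. The fibroblast sum differed mainly through LUM, which read 7.33 and 6.04. The part of these differences in the members' values was not tested. In bulk RNA, fewer cells with a transcript and less transcript per cell cannot be told apart. With 1 culture per group, an effect of miR-95 and any other difference between the lines cannot be told apart for any gene named.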

How the data were processed

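Total RNA of 2 PC3 cultures was measured on 1 Affymetrix array each. The deposited table gives log2 values for 23641 probe sets, and the scale was read from the values. The authors ran Affymetrix Expression Console 1.2, per the submitters' processing notes. Summarisation, background correction, scaling between arrays, build and filters are not stated in the sources used here, so a shift common to all transcripts could be hidden by the authors' scaling.

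Platform annotation gave 1 gene to 14088 probe sets and several to 0, and 9553 are unnamed here. All 14088 Entrez identifiers matched the RefSeq table (GRCh38.p14), used for names, gene order and gene span. Probe sets of a gene were averaged (167 of 13864 genes) and each array was centred on its median over genes. With 1 array per group no test was possible. The guide to measurement disagreement was the pooled SD of the differences between probe sets of one gene, 0.132 over 68 detected genes. The number of arrays limits precision. The steps were tested on simulated data. Python 3.11.15, NumPy 2.4.6, pandas 2.3.3 and statsmodels 0.14.6 were used.

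The members and lists were chosen with earlier results of these data known. Named genes were the members, list genes past 1.5-fold, the 2 detected list genes with the largest difference each way, the 3 nearest value pairs (leaving out LOC, RNU, SNOR, MIR, LINC and open reading frame symbols), and the nearest measured gene on each side. Other list genes, KDR and LUM were named after their values were seen. A list of receptor effectors is not reported here. Alternatives were no centring, centring on all probe sets, quantile normalization, loess (span 0.4), the brightest probe set, an offset of 32, detection at the 25th or 75th percentile or none, and 1.3-fold or 2-fold limits.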

Additional observations from a re-analysis of the deposited data

How the results depend on the processing

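For the 5 members, the 4 contrasts with SGPP1 and the pathway median, each alternative moved the value by less than 0.132, the disagreement between probe sets of one gene. The contrasts could not move without centring, with centring on all probe sets or with the brightest probe set. Each member has 1 probe set, so these alternatives only shift the arrays by a constant, which cancels. SGPL1 changed sign after quantile normalization, at 0.01 against -0.055. At 2-fold 0 members and 0 pathway genes were called either way, against 1 lower and 1 higher in each at 1.5-fold, and 0 detected genes were lower and 1 higher. At 1.3-fold 231 detected genes were lower and 133 higher, against 61 and 28 at 1.5-fold. The calls among the members were the same there under median centring, though PLPP3 lay close to that limit. With no filter on dim genes 128 were lower and 59 higher, and with detection at the 75th percentile 28 and 14, where 4 of the 5 members were detected. The share of lower genes among all calls was 68.5% in the main setting, 54.9% without centring (45 lower, 37 higher), 56.8% after quantile normalization (46 and 35) and 58.0% after loess (47 and 34). The other alternatives gave counts within 1.5 times. No paired analysis was possible because each group holds 1 array. Low signal limits what can be said of genes below the detection rule, such as SGPP2.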
